A study of Mus musculus with 146 samples.

Results

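The glycolytic enzymes described here are 10 genes taken from a fixed list of names: the hexokinases Hk1 and Hk2, the glucose phosphate isomerase gene Gpi1, the phosphofructokinases Pfkl and Pfkp, and Aldoa, Tpi1, Pgk1, Pkm and Ldha. They are 10 of 22721 genes in the table of raw counts, and all 10 are also among the 10893 genes of the table of variance-stabilised (VST) values. The transcripts were measured by polyadenylated RNA sequencing of bone marrow-derived macrophages, which are cultures of marrow cells driven to become macrophages by a medium conditioned by L929 fibroblasts, here for 5 days. The cultures came from 146 outbred mice of the stock labelled Crl:CFW(SW)-US_P08 at 16 weeks of age, 1 library per mouse, with 60 mice labelled male and 86 labelled female. Each library stands for 1 culture of 1 mouse, so the spread below holds mouse and culture together. No culture was treated, and no allele, transgene or diet separates the mice in the labels, so every comparison below is between mice, labelled sexes, plates or collection dates. The libraries sat on 7 plates, plate 1 with 6 mice and each of the other plates with 22 to 24, and carried 28 collection date labels of 1 to 14 mice each. The date labels are written in more than one format and are used here as names without an order.

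Glycolysis splits glucose into pyruvate in the cytosol. Hexokinase traps glucose in the cell as glucose 6-phosphate, the isomerase and phosphofructokinase turn it into fructose 1,6-bisphosphate, aldolase and triose phosphate isomerase yield glyceraldehyde 3-phosphate, and phosphoglycerate kinase and pyruvate kinase return the ATP. Lactate dehydrogenase reduces pyruvate to lactate and so renews the NAD+ that the pathway needs. Macrophages are known for a high glycolytic rate that increases further on inflammatory activation, and several of these genes are textbook targets of the hypoxia-inducible factors (HIF) and of MYC.

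Library totals ran from 14.5 to 121 M counts (median 43.8 M). The 10 macrophage markers, among them Lyz2, Cd68, Csf1r and Adgre1, summed to between 12032 and 25719 CPM (the usual count scaled to the library total) in every library. The 16 markers of granulocyte precursors and neutrophils spread more widely in sum, from 265 to 2489 CPM, led by Mmp8 (mean 422 CPM) and Mpo (157 CPM), with Ly6g near 0 (mean 0.0334 CPM). Erythroid, B cell, and T and NK cell markers reached at most 0.744, 9.52 and 8.19 CPM per list, and the 5 stromal markers at most 68.1 CPM. Y-linked counts went against the labelled sex in 6 libraries, which were kept under their labels unless stated. The 5 mice of the date label 22/07/2010 stood apart in several of the measures below, and female 83 had the fewest counts, so the leading counts were also taken without each of these. In libraries of whole cultures, fewer cells of a type and less RNA per cell cannot be told apart.

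Among the listed members, enzymes of the later steps, from aldolase on, were the most abundant, with Pgk1 as the exception. This does not extend to the later steps outside the list, some of which read low as counted. Levels of different genes are compared as RPKM, the CPM per kilobase of annotated exon. Aldoa, fructose bisphosphate aldolase A, had 734 RPKM on average (526.1 to 1059 over the 146 libraries), which placed it at the 99.8th percentile of the VST genes. Pkm, the pyruvate kinase of most tissues, had a mean of 462 RPKM, Ldha, the A subunit of lactate dehydrogenase, 408 RPKM, and Tpi1, triose phosphate isomerase, 289 RPKM. As counted, the lowest Tpi1 value of 191 RPKM lay above the highest Gpi1 value of 156 RPKM. The Gpi1 values leave out the counts of a pseudogene with its sequence, Gm1840, which held 48.1% of their summed CPM. Gpi1, the enzyme that interconverts glucose 6-phosphate and fructose 6-phosphate, followed with a mean of 84.5 RPKM and Pgk1, the X-linked phosphoglycerate kinase, with 59.5 RPKM. Of the listed members, the ATP-consuming kinases at the head of the pathway came last. Hk1, the hexokinase found in most cells, had 27.2 RPKM, and Pfkl, the liver type phosphofructokinase, 21.6 RPKM. Pfkp, the platelet type, had 15.7 RPKM. Hk2, the hexokinase of muscle and fat that insulin and hypoxia are known to induce, had 13.1 RPKM. The hexokinase step as a whole was not last, because Hk3, outside the list, had 162.5 RPKM, above Gpi1 and Pgk1. Even Hk2 was above the median VST gene, which had 8.00 RPKM.

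Neighbours in this order were not equally distinct. Aldoa exceeded Pkm, Ldha exceeded Tpi1, and Pgk1 exceeded Hk1 in all 146 libraries. Pkm exceeded Ldha in 133 libraries, and Hk1 exceeded Pfkl in 144. The least separated neighbours were Pfkp and Hk2, with Pfkp above Hk2 in 107 of 146 libraries. Pgk1 and Pkm are uncertain in level, because 53.3% and 25.6% of their 50-base stretches also occur in another annotated gene. Reads from those stretches can be lost or assigned to a copy. The level of Gpi1 is uncertain as well, with 17.1% shared stretches and the Gm1840 counts described below, and so is its place in the order.

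**Figure D1:**
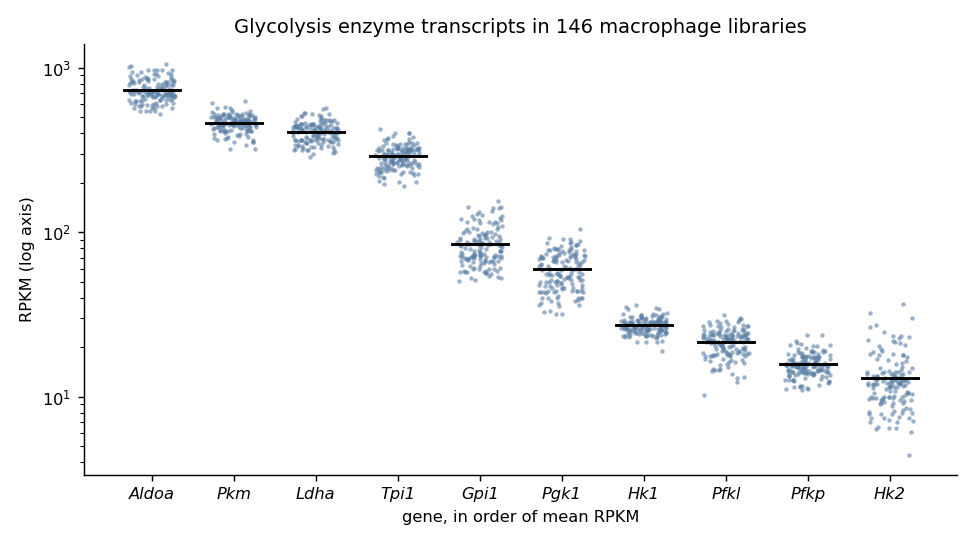
RPKM (log axis) of the 10 glycolytic enzymes in 146 macrophage libraries, 1 point per mouse, with the mean as a bar; genes run in order of mean RPKM. As counted, with the pseudogene of Gpi1 left out, Aldoa, Pkm, Ldha and Tpi1 lie above the other members, and Hk2 has the widest spread, from 4.42 to 36.5 RPKM.

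For 3 members a processed copy elsewhere in the genome also collected counts. These copies were chosen after their counts were seen. Gm1840, a processed pseudogene on chromosome 8 with sequence of Gpi1, had 500.3 ± 116 CPM (SD, n = 146), against 545 ± 147 CPM for Gpi1 itself, so it held 48.1% ± 2.09 of their sum. The pseudogene followed Gpi1 over mice with a Pearson r of 0.984 after removal of plate and sex (Spearman rho 0.985). Aldoart1, an aldolase retrogene on chromosome 4, had 30.2 ± 9.39 CPM and followed Aldoa with r = 0.908 (rho 0.914). Pgk1-rs7, a processed pseudogene on chromosome 12, had 30.8 ± 9.99 CPM or 19.1% of its sum with Pgk1, and followed Pgk1 with r = 0.318 (rho 0.463). Whether the counts of these copies came from their own transcripts was not tested.

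Isoenzymes outside the list were compared per length within families chosen after their values were seen. Hk3, the hexokinase of myeloid cells, carried 79.8% ± 3.56 (SD, n = 146) of the hexokinase RPKM, so that Hk1 with 13.6% ± 2.14 and Hk2 with 6.57% ± 2.64 were the minor forms. Relative to its mean the share of Hk2 varied most, from 1.95% to 15.7% of the family over mice. Among the phosphofructokinases, Pfkl held 49.6% ± 4.07, Pfkp 36.4% ± 3.61 and Pfkm, the muscle type, 14.0% ± 1.98. Aldoa made up 97.5% ± 0.637 of the aldolase RPKM beside Aldoc, and Ldha 99.4% ± 0.172 of lactate dehydrogenase beside Ldhb, the B subunit gene, which is itself uncertain with 22.0% shared 50-base stretches. Hkdc1, Pgk2, Pgam2, Pklr and Ldhc had means under 0.05 CPM.

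Hk2 varied more between mice than any other member. Its lowest, median and highest values were 26.4, 72.6 and 218 CPM, an 8.26-fold range, and its SD on the VST log2 scale of 0.51 was at the 96.6th percentile of VST genes, whose median SD was 0.18. Pgk1 (71.1, 128 and 235 CPM) and Gpi1 (327, 517 and 1005 CPM) came next with SDs of 0.39 and 0.38. The remaining 7 members had SDs between 0.14 and 0.27. Hk1 was the steadiest, with 161, 232 and 309 CPM as its lowest, median and highest values and an SD at the 28.6th percentile, followed by Pkm with 1592, 2315 and 3154 CPM. Both hexokinases of the list thus sat at opposite ends of the range of spread.

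The promoter windows of 4 members are shown because their genes vary in different ways below. Each holds 250 bases before and 50 bases from an annotated RefSeq start on the GRCm38.p6 build, on the strand of the gene. Capitals mark ACGTG or its reverse complement CACGT, a form of the core of the element that HIF binds. The form GCGTG was not searched or marked, so a window without capitals may still hold it. Both strands were searched, and the letters CACGTG, the E-box read by MYC and other factors, contain both. The motif and the windows to print were chosen after values of these genes were known.
Pgk1, chrX:106186850-106187149, plus strand: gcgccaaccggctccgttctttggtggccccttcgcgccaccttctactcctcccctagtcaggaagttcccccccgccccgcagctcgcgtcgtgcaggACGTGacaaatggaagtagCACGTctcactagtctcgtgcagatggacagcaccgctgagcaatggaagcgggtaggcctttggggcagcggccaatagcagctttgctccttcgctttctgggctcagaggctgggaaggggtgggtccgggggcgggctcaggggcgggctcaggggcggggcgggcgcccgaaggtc
Gpi1, chr7:34230287-34230586, minus strand: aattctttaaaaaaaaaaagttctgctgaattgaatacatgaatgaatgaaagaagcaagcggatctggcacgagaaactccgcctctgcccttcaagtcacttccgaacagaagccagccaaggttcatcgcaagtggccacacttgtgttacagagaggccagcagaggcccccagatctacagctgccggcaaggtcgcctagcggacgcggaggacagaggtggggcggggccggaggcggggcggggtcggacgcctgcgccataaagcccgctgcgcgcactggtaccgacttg
Ldha, chr7:46845554-46845853, plus strand: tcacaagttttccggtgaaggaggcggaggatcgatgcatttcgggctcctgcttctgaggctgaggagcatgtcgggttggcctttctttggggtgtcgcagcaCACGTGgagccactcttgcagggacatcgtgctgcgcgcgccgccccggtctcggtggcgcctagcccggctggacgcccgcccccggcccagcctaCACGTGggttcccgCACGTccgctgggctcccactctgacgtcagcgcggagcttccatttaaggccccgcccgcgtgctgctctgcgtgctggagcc
Hk2, chr6:82774405-82774704, minus strand: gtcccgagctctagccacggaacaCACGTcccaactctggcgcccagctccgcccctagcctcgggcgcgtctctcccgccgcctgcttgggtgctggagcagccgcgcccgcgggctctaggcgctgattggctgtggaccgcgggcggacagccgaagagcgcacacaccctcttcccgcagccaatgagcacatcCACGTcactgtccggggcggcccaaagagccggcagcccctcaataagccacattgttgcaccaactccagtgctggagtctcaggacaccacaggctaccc
The Pgk1 window holds the letters 2 times, at 150 and 131 bases before the start, the Hk2 window 2 times, and the Ldha window 5 times in 3 stretches, 2 of which are CACGTG. RefSeq gives 2 starts of Ldha, and only the window shown, the nearer to the annotated gene start, holds the letters. Of the other 7 members, the windows nearest to the annotated gene start hold none, although other RefSeq starts of Hk1 (1 of 2), Pkm (1 of 2) and Aldoa (2 of 3) do. Of all 32851 mouse windows of this length, 19.6% hold the letters at least once, 8.21% hold them 2 times or more, and 7.15% hold CACGTG. These are matches of letters only, and no binding was measured.

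Most members varied together, and Hk2 did not vary with the rest. Correlations were taken over the 146 libraries on VST values after removal of plate and labelled sex. Of the 45 pairs of members, 32 had a positive Pearson r, and the median over all 45 was 0.365. Of the 59323278 pairs of all VST genes, 49.7% were positive and 3.23% exceeded 0.5, with a median of -0.00173. The highest pair was Gpi1 with Aldoa, consecutive but for phosphofructokinase in the pathway (r = 0.903, Spearman rho = 0.889). Tpi1 with Ldha reached r = 0.886 (rho = 0.893), Gpi1 with Pgk1 0.877 (rho = 0.878), Tpi1 with Pkm 0.807 (rho = 0.776) and Aldoa with Pgk1 0.777 (rho = 0.746). In each of these 5 pairs the permutation p of r and of rho was 1e-05, the smallest that 100000 two-sided permutations can give. The permutations ran over all libraries and ignore that mice of one date may be alike.

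Each of these 5 pairs was positive on all 7 plates. Without the 2 mice farthest from the median of the first gene, their r was 0.895, 0.885, 0.870, 0.793 and 0.756 in the order given. When date took the place of plate, r was 0.866 for Gpi1 with Aldoa, 0.913 for Tpi1 with Ldha and 0.869 for Gpi1 with Pgk1. Within the 7 single plates, Gpi1 with Aldoa ranged from 0.798 to 0.951, Tpi1 with Ldha from 0.779 to 0.961, Gpi1 with Pgk1 from 0.783 to 0.955, Tpi1 with Pkm from 0.701 to 0.921 and Aldoa with Pgk1 from 0.465 to 0.868. Without the mice of 22/07/2010, r was 0.907 for Gpi1 with Aldoa and 0.905 for Tpi1 with Ldha.

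**Figure D2:**
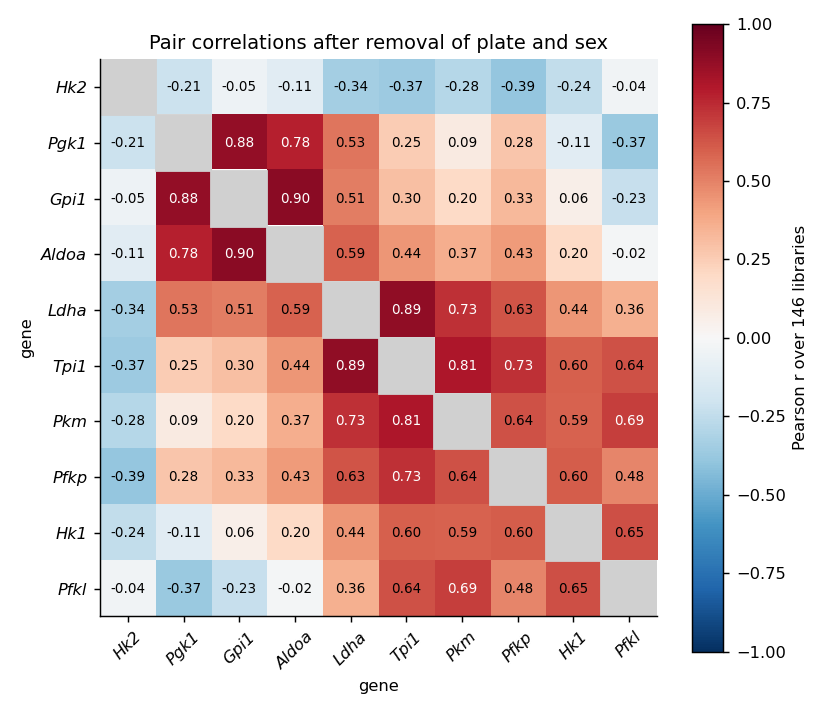
Pearson r between each pair of the 10 glycolytic enzymes over 146 libraries, on VST values after removal of plate and labelled sex; both axes list the genes, colour and number give r. Gpi1, Aldoa and Pgk1 form a dark block, Tpi1, Ldha, Pkm, Pfkp, Hk1 and Pfkl a wider one, and the Hk2 row is negative throughout.

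Read from these values, after they were seen and so without a test, the members other than Hk2 lay in 2 blocks. The 3 pairs among Gpi1, Aldoa and Pgk1 had r of 0.777 to 0.903. The 15 pairs among Hk1, Pfkl, Pfkp, Tpi1, Pkm and Ldha had r of 0.358 to 0.886 (median 0.635). Between the blocks the 18 pairs ran from -0.370, for Pgk1 with Pfkl, to 0.589, for Aldoa with Ldha. Ldha was the member of the second block nearest to the first, with r of 0.511 to Gpi1, 0.534 to Pgk1 and 0.589 to Aldoa. These exceeded its r to Hk1 (0.440) and Pfkl (0.358) in its own block, so the 2 blocks were not sharply apart. Pfkl had r of -0.233, -0.370 and -0.0164 to Gpi1, Pgk1 and Aldoa.

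**Figure D3:**
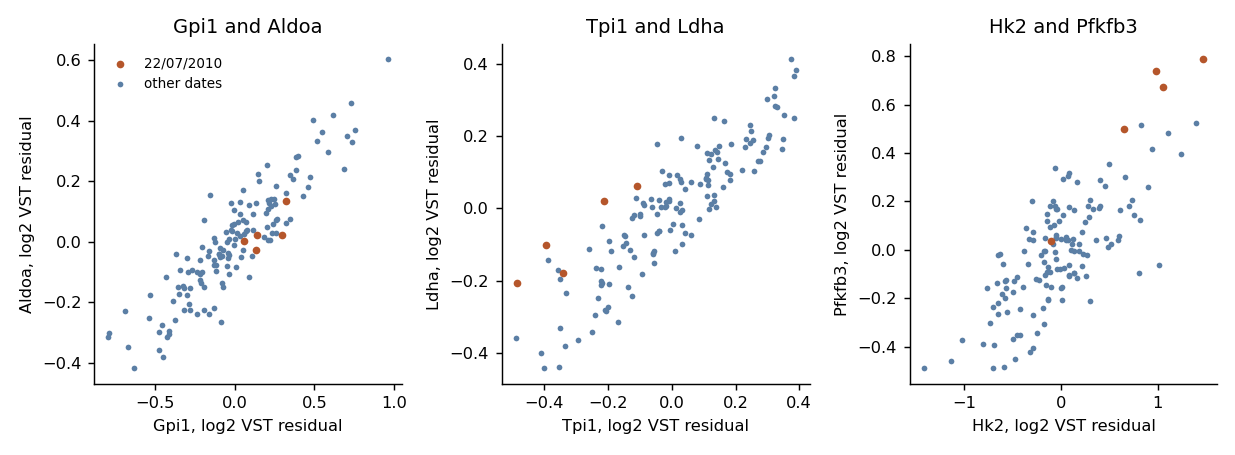
VST log2 residuals after removal of plate and labelled sex for Gpi1 and Aldoa (left), Tpi1 and Ldha (middle), and Hk2 and Pfkfb3 (right), 1 point per mouse over 146 libraries, with the 5 mice of 22/07/2010 in orange. The first 2 panels follow r of 0.903 and 0.886; in the Hk2 panel (r = 0.758) 4 of the 5 orange points lie at the upper right.

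Each member was then used in turn as the predictor of all other VST genes, with limma's moderated test, plate and sex as covariates, and p adjusted by Benjamini-Hochberg over all genes. Of the 90 ordered pairs of members, 60 were positive and 15 negative at an adjusted p under 0.05. Since many genes follow any one gene in these cultures, each count is set beside the share of all genes called. With Hk1 as predictor, 6 of the 9 other members were called positive and 1 negative, where 25.6% of genes were positive and 25.9% negative. With Hk2, none was positive and 5 were negative (10.7% and 11.9% of genes). Hk2 was thus the sole predictor in the list with more negative than positive members.

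With Gpi1, 6 members were positive and 1 negative (33.6% and 36.3% of genes). With Aldoa, 7 were positive and none negative (29.6% and 32.6%), and with Pgk1, 5 were positive and 2 negative (34.5% and 36.2%). These 3 genes had more genes called than most other members, so their counts stand against a high background. With Pfkl, 5 members were positive and 2 negative (33.7% and 34.7%).

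With Pfkp, 8 members were positive and 1 negative, where 17.3% and 18% of genes were. With Tpi1, 8 were positive and 1 negative (22.4% and 22.3%), with Pkm, 7 and 1 (26.4% and 25.9%), and with Ldha, 8 and 1 (15.6% and 14.9%). In each of these 4 cases the negative member was Hk2. Over the 8 alternatives to the fit, the positive ordered pairs numbered between 53 and 70.

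Hk2 was negative in r with all 9 other members, from -0.387 with Pfkp and -0.365 with Tpi1 to -0.0388 with Pfkl. Its 5 called partners in the list were the genes of the second block other than Pfkl, that is Hk1, Pfkp, Tpi1, Pkm and Ldha, with adjusted p between 9.74e-05 and 0.0233 by limma. Pgk1 with Hk2 had an adjusted p of 0.0506 when Hk2 was the predictor and 0.0176 when Pgk1 was. Without the mice of 22/07/2010 the r of Hk2 with Pfkp was -0.331 and with Tpi1 -0.290, and the r with Pfkl was 0.0750. After removal of date and not plate, the r with Pfkl was 0.148 and the other 8 stayed negative, from -0.0402 to -0.334.

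Outside the list, the 3 genes with the highest r to Hk2, among 9490 genes with a symbol and few shared stretches, were Pfkfb3, the kinase that makes the phosphofructokinase activator fructose 2,6-bisphosphate (r = 0.758), Narf (0.684) and Slc2a1, the glucose transporter GLUT1 (0.643). The lowest was Hdac9, a histone deacetylase (-0.541). Without the mice of 22/07/2010 the r with Pfkfb3 was 0.711. Partners were chosen for their r and carry no test here. Narf and Slc2a1, as well as Ero1l below, belong to the HIF target list used further on.

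Gpi1, Pgk1 and Aldoa shared partners. Among the same 9490 genes, Bsg, basigin, the chaperone of the lactate transporters, was in the 3 highest for all of them. Its r was 0.889 to Gpi1, 0.863 to Pgk1 and 0.823 to Aldoa. Gbe1, the glycogen branching enzyme, had r of 0.886 to Gpi1 and 0.889 to Pgk1. Other close partners were Ero1l, the disulphide oxidase of the endoplasmic reticulum (0.887 to Gpi1), Srgn, the proteoglycan serglycin (0.866 to Pgk1), and, for Aldoa, the retrogene Aldoart1 and Unc13a (0.796). Their lowest partners were Pigk for Gpi1 (-0.844), Letm1, a protein of the inner mitochondrial membrane, for Pgk1 (-0.843), and Eif4g2 for Aldoa (-0.762).

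Among the 9490 genes with a symbol and few shared stretches, Tpi1 and Pkm both had Slc16a3, the lactate exporter MCT4, as their closest gene (r = 0.769 and 0.684). The enolase gene Eno1, left out at 28.0% shared stretches, had a higher r of 0.730 to Pkm. Pgm1, the phosphoglucomutase that joins glycogen to glycolysis, was close to Tpi1 (0.732) and Pfkp (0.628), and Grhpr, glyoxylate and hydroxypyruvate reductase, was near Pkm (0.664) and Pfkp (0.645). Slc2a6, a sugar transporter of the lysosome, was close to Pkm (0.649), and Dgkd, a diacylglycerol kinase, to Pfkp (0.645). For Pfkp, Tpi1 and Ldha the closest of all genes was a fellow member of the list. Of the 9490 genes, the closest to Ldha were Fam162a (0.793), Anxa2, annexin A2 (0.785), and Prelid2 (0.733). Eno1, left out of these, had r of 0.745 to Ldha. The closest of the 9490 genes to Pfkl were Anapc2, a subunit of the anaphase-promoting complex (0.795), Rapgef1 (0.791) and the phosphatase gene Ptpn6 (0.776). Those to Hk1 were the splicing factor gene Sf3b2 (0.732), Eml2 (0.718) and the myosin gene Myo1c (0.706).

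No member passed the test for labelled sex. Of 12060 genes tested by edgeR's quasi-likelihood test with plate as covariate, 605 (5.02%) differed between male and female libraries at a Benjamini-Hochberg adjusted p under 0.05, and none of the 10 members did. At an unadjusted p under 0.05 there was 1 member, Pkm. The smallest p belonged to Pkm, whose mean was 2217 CPM in the 60 males (SD 271) and 2374 CPM in the 86 females (SD 248). Its log2 difference, male minus female, was -0.07 ± 0.03 (SE, adjusted p = 0.0865). The Pkm difference was negative on 6 of the 7 plates. Hk2 averaged 81.05 ± 35.6 CPM in males and 76.1 ± 28.4 CPM in females, a difference of 0.09 ± 0.09, and X-linked Pgk1 134 ± 33.04 CPM in males and 133 ± 36.4 CPM in females (0.0013 ± 0.06). The ranges of males and females overlapped for every member, and no member passed under any of the 9 alternatives, DESeq2 and limma voom among them. One of these left out the 6 libraries that go against their label and called 926 genes. No member passed an interaction test of sex with plate (adjusted p of 0.996 or more, lowest unadjusted p 0.113).

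Other genes of glucose metabolism did differ by sex in small numbers. Of the pyruvate fate list, 4 of 15 tested genes were lower in males and none was higher: Pdha1, a subunit of pyruvate dehydrogenase encoded on the X chromosome (-0.05), Me2 (-0.09) and Me1 (-0.25), the mitochondrial and cytosolic malic enzymes, and Pdk3, a pyruvate dehydrogenase kinase (-0.15). Me1 is uncertain at 26.6% shared stretches. G6pdx, the X-linked first enzyme of the pentose phosphate pathway, was lower in males (-0.08) and was the 1 of 8 genes of its list to pass. Pfkfb2 was higher in males (0.07), 1 of 5 in its list, and no gene passed among 8 of transport, 11 other isoenzymes and steps, 8 of glycogen and 13 HIF and MYC regulators.

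Plates differed for most members, as for most genes. Of all genes tested, 74.8% differed between plates, and 8 of 10 members did, all but Hk1 (adjusted p = 0.0584) and Hk2 (0.203). Aldoa had the smallest adjusted p (5.07e-10), with 2525 ± 266 CPM on plate 10 (SD, n = 24) and 1786 ± 201 CPM on plate 1 (SD, n = 6), the plates of its highest and lowest mean. The lowest, median and highest Aldoa values were 2019, 2534 and 3082 CPM on plate 10 and 1532, 1819 and 2003 CPM on plate 1, so these plates did not overlap. Gpi1 (adjusted p = 3.67e-08) had 685 ± 145 CPM on plate 10 and 455 ± 97.4 CPM on plate 3 (SD, n = 22), a 1.504-fold ratio with overlapping ranges. Plate 10 also had the highest mean of Tpi1, Pgk1, Pkm and Ldha. Plate accounted for 35.2% of the VST variance of Aldoa, 28.7% of Gpi1, 26.3% of Ldha and 4.83% of Hk2, against a median of 15.6% over VST genes. With collection date added to the fit, 1332 genes and 1 member, Aldoa, remained past the threshold between plates. Only 10 of the 28 dates span more than 1 plate.

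Collection dates within plate differed for all 10 members, where 69.2% of genes did, from Hk2 (adjusted p = 8.78e-07) and Pfkp (4.94e-06) to Ldha (0.0423). Ldha was the one member whose call ended under alternatives, with adjusted p of 0.0712 without the filter on low counts, 0.0540 by limma voom and 0.0616 without the mice of 22/07/2010. Date alone, which includes differences between plates, took up 36.8% (Hk1) to 52.8% (Gpi1) of the VST variance of a member. The median of VST genes was 40.2%. Beyond plate, date took up 21.2% (Ldha) to 45.2% (Hk2), with 27.6% for Gpi1 and a median of 27.8% over VST genes. What the mice of one date shared beyond the label cannot be told apart here.

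The ratio between the highest and lowest date was largest in Hk2. The 5 mice of 22/07/2010 had 218, 162, 158, 105 and 70.9 CPM of Hk2 (mean 143 ± 56.7), and the 6 mice of 26/05/2011 had a lowest, median and highest value of 39.02, 44.5 and 63.7 CPM (mean 46.9 ± 8.85), a ratio of 3.05 with no overlap. Another date with high Hk2, 28/10/2010, was tight, with 127 to 147 CPM in its 5 mice (mean 135 ± 8.09). These dates were the extremes among 17 dates of at least 4 mice, so the ratio describes the range and is no test of 2 dates.

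The members parted on these dates. On 22/07/2010 Hk1, Pfkl, Pfkp, Tpi1 and Pkm each had their lowest mean of the 17 dates, while Hk2 had its highest and Pgk1 ranked 3 of 17 with 159 ± 15.0 CPM. Pfkl had 118, 108, 105, 96.1 and 68.4 CPM in these 5 mice, against 163 to 182 CPM in the 5 mice of 2010-04-11, its highest of the 17 dates. Tpi1 had a mean of 598 ± 68.6 CPM on 22/07/2010 and of 894 ± 115 CPM (SD, n = 10) on its highest of the 17 dates, 14/04/2011. The 3 mice of 18/05/2011, too few for the 17 dates, had higher means of both, 1108 ± 52.2 CPM of Tpi1 and 199.9 ± 9.29 CPM of Pfkl. Their means of Hk1, Gpi1, Pfkp, Aldoa, Pkm and Ldha also exceeded those of all 17 dates, while Hk2 (67.7 CPM) and Pgk1 (165 CPM) did not. On 28/10/2010 the pattern was another one. Gpi1 (413 ± 57.1 CPM), Pgk1 (87.9 ± 12.9 CPM) and Ldha (1169 ± 125 CPM) had their lowest means of the 17 dates there, beside high Hk2. The 4 mice of 14/07/2011 spread widely, with 911, 874, 576 and 548 CPM of Gpi1 and 235, 206, 138 and 113 CPM of Pgk1. The highest value of both was that of female 83, the library with the fewest counts.

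**Figure D4:**
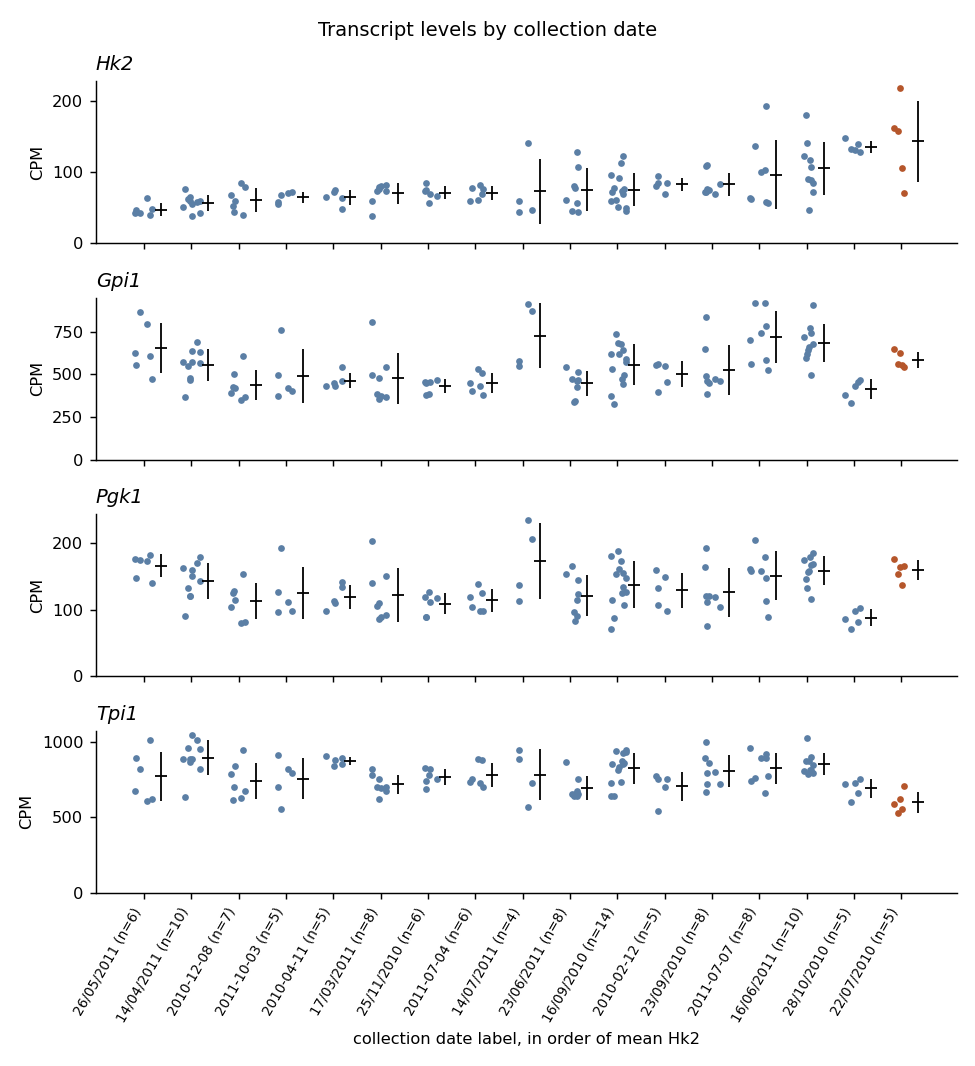
CPM of Hk2, Gpi1, Pgk1 and Tpi1 by collection date label for the 17 dates of at least 4 mice, in order of mean Hk2 and not of time; points are mice, bars the mean ± SD, and orange marks 22/07/2010. Hk2 is high in all 5 mice of 28/10/2010, where Gpi1 and Pgk1 are at their lowest, and Tpi1 is lowest on 22/07/2010.

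Other measures moved on 22/07/2010 as well. The score of 20 cholesterol synthesis genes defined below averaged -2.67 SD in its 5 mice, with a median of 0.213 SD in the other libraries, and the mitosis score -1.87 SD. The HIF target score averaged 1.37 SD. Granulocyte precursor markers summed to 918 to 1366 CPM on that date and had a median of 728 CPM in the other libraries, and the 6 dendritic cell markers to 49.5 to 128 CPM, with a median of 28.9 CPM. Over all libraries, the dendritic cell sum was mostly Itgax, with a mean of 28.7 of 35.4 CPM, while Zbtb46 averaged 0.850 CPM and Ccr7 0.255 CPM. The sum is therefore mainly a reading of 1 gene. The part of these scores and markers in the enzyme levels was not tested.

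In all, 4 scores were formed as the mean of standardised VST residuals of a gene list that holds no glycolytic member, scaled to an SD of 1. The HIF target score rests on 19 genes, among them Slc2a1, Bnip3, Pdk1, P4ha1, Vegfa and Egln3. Of 10874 other genes, 69.2% were associated with it by limma's moderated test, and 7 of 10 members were, 6 positive and 1 negative, a share near that of all genes. The size of the slopes differed between members. Pgk1 had a log2 slope of 0.27 ± 0.02 per SD of the score (SE, adjusted p = 2.41e-25) and Gpi1 of 0.27 ± 0.02 (adjusted p = 1.00e-32), which put them at ranks 16 and 3 of all genes by p. Aldoa (0.13 ± 0.01, rank 148), Hk2 (0.14 ± 0.04), Ldha (0.07 ± 0.01) and Tpi1 (0.04 ± 0.02) were also positive, and Pfkl was negative (-0.06 ± 0.02, adjusted p = 0.00334). Hk1, Pfkp and Pkm did not pass, with slopes of -0.01, 0.03 and -0.0045. The Pearson r of the score with Gpi1 was 0.825, with Pgk1 0.762, with Aldoa 0.711 and with Hk2 0.273 (Spearman rho 0.791, 0.742, 0.663 and 0.170). The permutation p of r was 1e-05 for the first 3, the smallest possible, and 0.000800 for Hk2, or 4.31e-05 and 0.00213 adjusted over the 56 relations of scores and depth. The rho of Hk2 had an adjusted p of 0.0732. Without the 2 mice of most extreme score, r was 0.805, 0.740, 0.675 and 0.254 for Gpi1, Pgk1, Aldoa and Hk2.

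The slopes of Gpi1, Pgk1 and Aldoa passed under every alternative, but their size did not hold under all. Gpi1 ran from 0.14 to 0.27, Pgk1 from 0.06 to 0.27 and Aldoa from 0.09 to 0.14 over the 8 alternatives. The lowest values came with the first 5 principal components of the remaining genes added as covariates. In that fit 9.93% of genes were associated with the score, and all 10 members were, all positive, from 0.04 for Hk1 to 0.40 for Hk2, with Pfkl at 0.16 in place of its negative slope. The components were computed without the score genes and the members. With collection date in place of plate, Hk2 (0.07, adjusted p = 0.0672) and Tpi1 (0.02, adjusted p = 0.158) did not pass.

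Other genes of glucose metabolism were set against the same score, with which 3657 of the 10874 genes were positively and 3870 negatively associated at a median slope of -0.0016. The lists below are a description, and a share of calls near 69.2% does not set a list apart. Of 8 glycogen genes, 6 were positive and 2 negative, led by Gbe1 at 0.35, Gyg, glycogenin, at 0.15, and Pygl, a glycogen phosphorylase, at 0.11, with Pygb at -0.05 and a median slope of 0.08 over the list. Of 11 other isoenzymes and steps, 6 were positive and 3 negative, with Eno2 at 0.31, Aldoc at 0.29, Eno3 at 0.15 and Hk3 at 0.13 (median 0.05). Of 7 transport genes outside the score, 4 were positive and 1 negative, with Bsg at 0.13, Slc16a3 at 0.10, Slc2a8 at 0.06 and Slc2a3 at 0.05 (median 0.05).

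In the pentose phosphate pathway none of 8 genes was positive and 5 were negative, among them H6pd at -0.13, Rpe at -0.07, Tkt at -0.06 and G6pdx at -0.03 (median -0.03). Of 14 genes of pyruvate fate, 4 were positive and 6 negative, with Me1 at -0.19, Pdk3 at -0.14, Dlat at -0.08 and Pdp2 at -0.07 (median -0.0029). Of 5 genes of fructose bisphosphate control, Pfkfb3 (0.10) and Pfkfb4 (0.09) were positive and Tigar, a fructose 2,6-bisphosphatase, negative (-0.12), with a median of 0.02. Of 12 HIF and MYC regulators outside the score, 5 were positive and 4 negative, with Egln1, the prolyl hydroxylase that marks HIF for decay, at 0.13 and Vhl at 0.06, and Mlx and Mtor at -0.05 and -0.04 (median 0.02). Hif1a itself was negative in r with 9 of the 10 members, from -0.0892 with Pfkl to -0.569 with Aldoa, and had r of 0.161 with Hk2, given as a description.

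The cholesterol score, named for the theme in the title of the series, rests on 20 enzymes of cholesterol synthesis, Acat2 among them. Of all genes, 61.2% were associated with it, and 9 of 10 members were, 6 positive and 3 negative. Pfkl (0.13 ± 0.02 per SD, SE, adjusted p = 1.54e-09), Tpi1 (0.10 ± 0.02, adjusted p = 1.12e-08), Pkm (0.06 ± 0.01), Pfkp (0.06 ± 0.02), Ldha (0.05 ± 0.01) and Hk1 (0.04 ± 0.01) were positive, all of them genes of the second block. Hk2 (-0.14 ± 0.04), Pgk1 (-0.10 ± 0.03) and Gpi1 (-0.08 ± 0.03) were negative, and Aldoa did not pass (-0.03 ± 0.02, adjusted p = 0.07001). The r with the score was 0.509 for Pfkl, 0.485 for Tpi1 and -0.276 for Hk2 (Spearman rho 0.446, 0.421 and -0.183). Their permutation p of r, adjusted over the same 56 relations, was 4.31e-05 for Pfkl and Tpi1 and 0.00216 for Hk2, while the rho of Hk2 had an adjusted p of 0.0523. Without the 2 mice of most extreme score, r was 0.463, 0.448 and -0.219.

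The mice of 22/07/2010 weighed on part of these slopes. Without them Hk2 had a slope of -0.05 (adjusted p = 0.313), Pfkl of 0.10 and Tpi1 of 0.08, both past the threshold. With collection date in place of plate, Hk2 (-0.06, adjusted p = 0.125) and Pfkp (0.03, adjusted p = 0.0539) did not pass and Aldoa did (-0.06). With the granulocyte precursor score added, the call of Gpi1 was lost (-0.04, adjusted p = 0.0815). With the first 5 principal components added, 12.8% of genes and none of the 10 members were associated with the score (lowest adjusted p 0.141, Pfkp).

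With the cholesterol score, 3368 of 10873 genes were positively and 3288 negatively associated, at a median slope of -0.00020. Against this background of 61.2%, the calls of the lists below are a description. Among other genes of glucose metabolism, the score went with Tkt (0.09), Rpia (0.06), Rpe (0.04) and G6pdx (0.03) in the pentose phosphate pathway, where 4 of 8 were positive and 1 negative (median 0.02). Of 15 genes of pyruvate fate, 6 were positive and 1 negative, with Pdk3 at 0.15, Pcx, pyruvate carboxylase, and Pdp2 at 0.10 each, and Dlat at 0.06 (median 0.01), so that 7 of 15 were called. Of 5 genes of fructose bisphosphate control, Tigar was positive (0.06) and Pfkfb4 (-0.08), Pfkfb3 (-0.08) and Pfkfb2 (-0.04) negative (median -0.04). Slc2a6 (0.12) was positive and Bsg (-0.06) negative among 8 transport genes (median 0.02). Other isoenzymes were split, 4 of 11 positive and 2 negative (median 0.01), as were glycogen genes, 3 and 3 of 8 (median 0.0047), and HIF and MYC regulators, 2 and 4 of 13 (median -0.01).

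**Figure D5:**
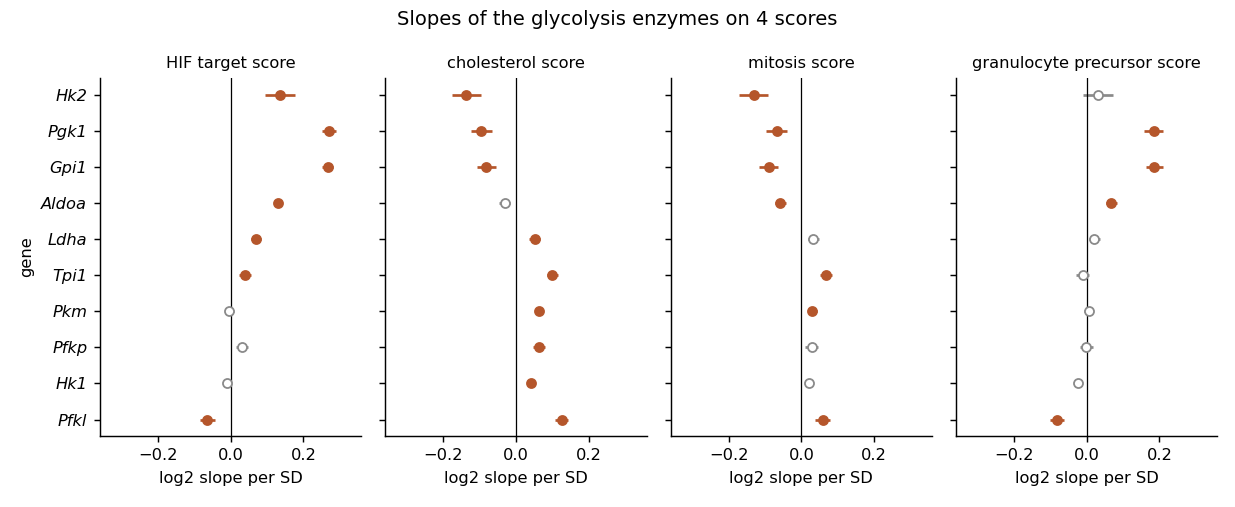
Log2 slope of each glycolytic enzyme per SD of 4 scores (panels), with SE as bars, from limma fits over 146 libraries with plate and sex as covariates; filled orange points have an adjusted p under 0.05 and open grey points do not. Gpi1 and Pgk1 have the largest positive slopes on the HIF target and granulocyte precursor scores, and Pfkl, at the bottom, has slopes of opposite sign to theirs in all 4 panels.

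The mitosis score, of 20 genes such as Mki67 and Cdk1, was associated with 50.2% of genes and with 7 of 10 members. Tpi1 (0.07 ± 0.02), Pfkl (0.06 ± 0.02) and Pkm (0.03 ± 0.01) were positive, and Hk2 (-0.13 ± 0.04), Gpi1 (-0.09 ± 0.03), Pgk1 (-0.07 ± 0.03) and Aldoa (-0.06 ± 0.01) negative. Without the mice of 22/07/2010, 3 members passed, Tpi1, Gpi1 and Aldoa, and with the first 5 principal components added 26.4% of genes and 2 members did, one of them Gpi1 with the opposite sign (0.0413, adjusted p = 0.0254). The call of Pgk1 (adjusted p = 0.0449) was lost with date in place of plate (-0.03, adjusted p = 0.405), without plate 1 (0.0731), without the mice of 22/07/2010 (0.160), without female 83 (0.0907) and with the granulocyte precursor score added (0.0554). With date in place of plate, the calls of Gpi1 (-0.05, adjusted p = 0.0917) and Pfkl (0.03, adjusted p = 0.214) were lost too, and without plate 1 that of Pkm (0.03, adjusted p = 0.0632).

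The granulocyte precursor score, of the 13 markers among the VST genes, such as Mpo and Elane, was associated with 56.6% of genes and with 4 of 10 members. Gpi1 (0.19 ± 0.02, adjusted p = 3.26e-12), Pgk1 (0.18 ± 0.03, adjusted p = 7.85e-10) and Aldoa (0.07 ± 0.01) were positive and Pfkl negative (-0.08 ± 0.02). Hk2 did not pass (0.03, adjusted p = 0.552). Its slope on the HIF target score (0.14 ± 0.04, SE) was similar to that of Aldoa (0.13 ± 0.01), but its r with that score was lower, 0.273 against 0.711. Gpi1 and Pgk1 had the largest slopes in the list on both the HIF target and the granulocyte precursor score, and the 2 scores had r = 0.411 with each other (Spearman rho 0.409, adjusted permutation p 4.31e-05 for r and 6.22e-05 for rho). Without the 2 mice of most extreme HIF target score, that r was 0.378. The part of granulocyte precursors in these slopes was not tested beyond the next fit. With the granulocyte precursor score added as a covariate, the slopes on the HIF target score were 0.23 for Gpi1, 0.23 for Pgk1 and 0.12 for Aldoa, all past the threshold, and Pfkl did not pass (-0.04, adjusted p = 0.124). With the first 5 principal components added, 3.9% of genes and none of the members were associated with the granulocyte precursor score (lowest adjusted p 0.160, Aldoa). Library depth had r between -0.202 (Pgk1) and 0.127 (Hk1) with the members after removal of plate and sex. That of Pgk1 (rho -0.148, adjusted permutation p 0.0259 for r and 0.125 for rho) was -0.101 without the 2 libraries of most extreme depth.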

How the data were processed

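RNA was sequenced from 146 macrophage cultures, 1 per mouse. Per the submitters' processing notes, the tools were FastQC, TopHat2 2.0.11, HTSeq 0.6.1 and DESeq2 on GRCm38, with no role or order given. The deposited table of raw counts holds whole-number counts per Ensembl gene. The deposited table of variance-stabilised (VST) values is on a log2 scale and holds the genes with at least 5 counts in every library. Over genes, VST values and log2 CPM had a median r of 0.990. No column was left unused (0). Gene names and lengths came from GENCODE M21, which named 21899 of the IDs, and promoter windows from RefSeq on GRCm38.p6.

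Counts were tested with edgeR 4.0.16 (TMM, quasi-likelihood) in R 4.3.3, with DESeq2 1.42.0 and limma voom as alternatives. The covariate was plate in the test for sex, sex in the test for plates, and plate and sex in the test for dates. VST values were tested with limma 3.58.1, with plate and sex as covariates. Adjusted p-values are Benjamini-Hochberg over all genes, called under 0.05. Scores are means of standardised residuals. Correlations used 100000 two-sided permutations over all libraries. Both tests were tested on simulated data. The p-values measure the spread between these cultures, and mice of a date are not independent.

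Genes with at least 20% of 50-base stretches shared with another gene are called uncertain, from 1 in 8 stretches sampled. Libraries labelled female with over 50 CPM, or male with under 5 CPM, of Y-linked genes were taken to go against their label, a limit set with earlier results known. Partners named are the 3 highest r and the lowest r among genes below the shared limit. The members and lists were chosen with earlier results of these data known. The lists cover transport, other isoenzymes, fructose bisphosphate control, pyruvate fate, the pentose phosphate pathway, glycogen, HIF and MYC regulators, and markers of other cell types. The markers of megakaryocytes summed to 29.9 to 121 CPM and those of mast cells and basophils to at most 11.9 CPM. The megakaryocyte sum was mostly Pf4, with a mean of 58.4 of 61.8 CPM.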

Additional observations from a re-analysis of the deposited data

Results flagged for a closer look

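Among 170 groups of 4 to 10 mice (plate 1 and single dates, each member), 12 held a library whose gap to the nearest other was large for the range of its group, by Dixon's 95% limit. Chance marks about 1 in 20 groups. No explanation was tested.

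Hk2 was 141 CPM in female 83 of 14/07/2011, against 44.1 to 58.9 CPM in the other 3 mice, and 63.7 CPM in female 1 of 26/05/2011, against 39.02 to 47.5 CPM. Female 83 had the fewest counts of all libraries. Gpi1 was 807 CPM in female 64 of 17/03/2011, against 358 to 541 CPM, and 542 CPM in female 42 of 2010-04-11, against 432 to 460.5 CPM. Pfkp was 253 CPM in female 43 of the same date, against 207 to 215 CPM.

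Male 7, the mouse of 22/07/2010 on plate 1, had 68.4 CPM of Pfkl, against 123 to 151 CPM in the other mice of the plate, and 1592 CPM of Pkm, against 2149 to 2451 CPM. Aldoa was 2226 CPM in male 14 of 2010-12-08, against 1584 to 1861 CPM, and 2959 CPM in female 35 of 23/09/2010, against 1993 to 2416 CPM. Tpi1 was 1024 CPM in female 16 of 16/06/2011, against 785 to 899 CPM. Ldha was 1006 CPM in female 73 of 14/04/2011, against 1389 to 1750.2 CPM, and 1486 CPM in female 77 of 23/06/2011, against 1072 to 1239.9 CPM.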

How the results depend on the processing

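Of 590 values of single members under the alternatives, 516 kept direction and side of the threshold, 34 lost the call, 9 gained one and 31 changed sign, 4 of these past the threshold, all 4 with the first 5 principal components added. The alternatives without 22/07/2010 and without female 83 were chosen after seeing the data. Counts of genes moved by over 1.5 times in 6 cases: 926 by sex without libraries against their label (605), 1332 between plates with date added (9021), and with components added 1080 for the HIF target (7527), 1394 for the cholesterol (6656), 2868 for the mitosis (5458) and 424 for the granulocyte precursor score (6155). The causes were not tested. Without female 83 the counts were 734 by sex, 8971 between plates, 8281 between dates, 7400, 6412, 5174 and 5839 for the same 4 scores, and 60 positive ordered pairs.

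Sign changes with components added were, on the HIF target score, Hk1 0.0444, Pfkl 0.161 and Pkm 0.0617. On the cholesterol score they were Hk1 -0.0268, Hk2 0.0585, Gpi1 0.0035, Pfkp -0.0407, Tpi1 -0.0074, Pkm -0.0079 and Ldha -0.0148. On the mitosis score they were Gpi1 0.0413, Aldoa 0.0072 and Pgk1 0.0248. On the granulocyte precursor score they were Hk2 -0.0660, Gpi1 -0.0036, Aldoa -0.0470, Pgk1 -0.0246, Pkm -0.0188 and Ldha -0.0112. The others were all short of the threshold: the sex difference of Pgk1 without plate 1 (-0.0076), without 22/07/2010 (-0.00019) and with date in place of plate (-0.0131), and of Gpi1 without female 83 (0.0037); the HIF target slope of Pkm without 22/07/2010 (0.0065) and of Hk1 with the granulocyte precursor score added (0.00021); and, on the granulocyte precursor score, Pkm (-0.0142) and Ldha (-0.0026) with date, and Pfkp without plate 1 (0.00097), without 22/07/2010 (0.0043), without female 83 (0.0035) and with the mitosis score added (0.00072).

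No paired analysis was possible because replicate numbers only name the mice. Copies limit the levels of Gpi1, Pgk1 and Pkm, and the lowest count of any member in any library was 563.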
